A study of Rattus norvegicus with 16 samples.

Results

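A set of 10 genes of osteoclasts, the multinucleated cells that resorb bone, was looked up by symbol in the deposited count table, and 8 of the 10 were among its 14476 genes. The genes found were Nfatc1, Oscar, Calcr, Itgb3, Atp6v0d2, Tcirg1, Ctsk and Acp5, and all 8 passed the filter on low counts that left 12857 genes for testing. The fusion genes Dcstamp and Ocstamp were not analysed here. The 4 animals were Sprague-Dawley rats with plated osteotomies in both limbs, a polymethyl methacrylate (PMMA) cement spacer in 1 limb, as in the Masquelet procedure, and no filling in the other. Tissue was taken after 4 weeks. The spacer limb gave the induced membrane around the cement (IM) and the neighbouring bone (PMMA bone). The empty limb gave the soft tissue of the osteotomy, which the labels call pre-fibrous non-union (PFNU), and the bone next to the empty defect (BNED). Every rat gave 1 RNA-seq library in each of the 4 groups, so n = 4 throughout and no group came from an unoperated animal. The labels used here name neither the age nor the sex of the rats.

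Osteoclasts form when macrophage precursors receive RANKL and CSF1 and fuse. RANKL signalling, helped by immunoreceptor partners such as OSCAR, switches on the transcription factor NFATc1, which drives the genes of the mature cell together with MITF, PU.1 and AP-1 factors. The mature cell clings to bone through an integrin, pumps protons into the sealed space beneath it to dissolve mineral, and releases cathepsin K and acid phosphatase to break down the matrix. In bone repair the same cells clear dead bone and woven callus.

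Promoter windows of RefSeq on build GRCr8, running from 250 bases before to 50 bases after a start site, were matched by gene for 5 of the 8 measured genes, which had 6 windows because Acp5 has 2. The 3 given here were chosen because they hold the motifs of osteoclast transcription factors that were searched for, and because Ctsk, Acp5 and Oscar carry the tissue differences described further on. Capitals mark the NFAT core GGAAA (read on the other strand as TTTCC), the MITF E-box CACATG and the PU.1 core GAGGAA (read on the other strand as TTCCTC). Both strands were searched, and a PU.1 core followed by A overlaps the NFAT core.
Ctsk, chr2:185747298-185747597, plus strand: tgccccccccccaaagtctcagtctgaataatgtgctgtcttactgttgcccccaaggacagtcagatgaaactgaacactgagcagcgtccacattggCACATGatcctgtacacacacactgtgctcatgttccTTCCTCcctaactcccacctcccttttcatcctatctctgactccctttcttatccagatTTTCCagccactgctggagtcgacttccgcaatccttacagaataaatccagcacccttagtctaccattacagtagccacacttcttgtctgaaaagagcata
Acp5, second start, chr8:28943880-28944179, minus strand: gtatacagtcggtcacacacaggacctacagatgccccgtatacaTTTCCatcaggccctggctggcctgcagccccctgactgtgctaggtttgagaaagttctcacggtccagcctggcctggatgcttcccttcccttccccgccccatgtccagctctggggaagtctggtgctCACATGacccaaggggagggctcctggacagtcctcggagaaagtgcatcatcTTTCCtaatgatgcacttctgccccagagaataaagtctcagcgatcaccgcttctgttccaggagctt
Oscar, chr1:74522633-74522932, plus strand: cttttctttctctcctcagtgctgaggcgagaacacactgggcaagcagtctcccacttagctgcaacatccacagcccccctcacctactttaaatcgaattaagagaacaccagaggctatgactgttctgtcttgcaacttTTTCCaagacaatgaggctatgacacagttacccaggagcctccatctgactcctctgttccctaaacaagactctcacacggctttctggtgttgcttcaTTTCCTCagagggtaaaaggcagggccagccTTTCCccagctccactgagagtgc

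The Ctsk and Acp5 windows each held a CACATG, at -151 to -146 and at -72 to -67 from the start. An NFAT core stood at -54 to -50 in Ctsk, at -205 to -201 and -19 to -15 in Acp5, and 3 times in Oscar, where the copy at -5 to -1 overlapped a PU.1 core at -4 to 2. A further PU.1 core lay at -114 to -109 in Ctsk. The NFAT core was in 3 of the 6 windows, CACATG in 2, the PU.1 core in 2 and the AP-1 letters TGANTCA in 0. Among all 33469 promoter windows of the same length, 62.7% held the NFAT core, 14.0% CACATG, 27.6% the PU.1 core and 7.33% the AP-1 letters, so the short cores are common and a match is only a description. The windows of Calcr, Tcirg1 and the first start of Acp5 held none of the letters searched.

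Library totals ranged from 40472228 to 76815879 counts. The 8 genes together took 0.0522 to 0.316% of the counts in IM, 0.0707 to 0.284% in PFNU, 0.786 to 1.62% in PMMA bone and 0.340 to 0.590% in BNED. Single counts ran from 11, for Calcr in the IM of rat 1, to 669005, for Ctsk in the PMMA bone of rat 3. Levels below are CPM, counts scaled to a common library total, after TMM scaling of library sizes. They are compared between libraries and not between genes, because transcript length was not used. In bulk tissue, fewer osteoclasts and less osteoclast RNA per cell cannot be told apart. RNA of the 8 genes from other cells cannot be told from that of osteoclasts either. The labelled tissues were checked by summed markers. The 8 osteoblast markers summed to 8282 to 53197 CPM in IM, 10406 to 28894 in PFNU, 63016 to 94992 in PMMA bone and 21382 to 53469 in BNED, so PMMA bone stood above the other groups, which overlapped. Most of each sum was on average Col1a1, a collagen gene not confined to osteoblasts, at 27071 CPM in IM and 31703 CPM in BNED. Each of the 8 averaged lower in IM and in PFNU than in BNED. Bglap averaged 298 CPM in IM, 270 in PFNU, 2413 in PMMA bone and 1762 in BNED. Skeletal muscle markers took 1.90 to 17.1% of the counts of IM libraries and 5.21 to 12.8% of PFNU libraries, against 0.156 to 0.999% in PMMA bone and 0.318 to 3.65% in BNED.

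Nfatc1, the transcription factor that RANKL switches on, varied least between groups. It had 65.6, 15.4, 112 and 50.6 CPM in the IM of rats 1 to 4, against 55.6, 59.0, 54.6 and 62.6 CPM in PFNU. In bone it had 67.1, 91.8, 124 and 78.3 CPM beside the spacer, against 48.8, 61.6, 65.1 and 51.2 CPM beside the empty defect. Every PMMA bone library lay above every BNED library. The IM libraries enclosed those of PFNU on both sides, with a highest-to-lowest ratio of 7.32 in IM and 1.15 in PFNU.

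Oscar, the collagen-binding immunoreceptor that gives osteoclast precursors a second signal, was lowest in the membrane. Its levels were 2.30, 2.74, 6.57 and 0.869 CPM in IM, against 3.53, 4.21, 10.6 and 5.51 CPM in PFNU. They were 23.9, 24.2, 41.3 and 13.9 CPM in PMMA bone, against 11.5, 12.3, 15.8 and 15.1 CPM in BNED. All soft-tissue libraries lay below all bone libraries, and within bone the PMMA bone of rat 4 fell inside the BNED range.

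Calcr, the calcitonin receptor through which calcitonin restrains resorption, was spread most widely over the 16 libraries. It had 0.211, 1.56, 9.86 and 2.43 CPM in IM, against 0.930, 4.54, 7.56 and 4.32 CPM in PFNU. In bone it had 8.15, 17.1, 19.2 and 6.91 CPM beside the spacer, against 6.76, 10.2, 13.9 and 9.69 CPM beside the empty defect. All 4 groups overlapped in part, and within IM the highest library was 46.7 times the lowest.

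Itgb3 encodes the beta3 chain of the integrin with which osteoclasts hold on to bone, and platelets and megakaryocytes carry it too. It had 10.8, 3.35, 79.9 and 9.46 CPM in IM, against 11.8, 8.96, 45.7 and 22.2 CPM in PFNU. In bone it had 76.9, 127, 198 and 67.8 CPM beside the spacer, against 41.1, 51.7, 69.2 and 69.9 CPM beside the empty defect. Rat 3 stood far above the other 3 membranes and inside the PMMA bone range. Megakaryocyte markers ran the other way in bone: the 4 that were measured summed to 20.7 to 56.3 CPM in PMMA bone and 58.0 to 81.1 CPM in BNED.

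Atp6v0d2 and Tcirg1 encode membrane-sector subunits of the proton pump, the d2 subunit, which also takes part in precursor fusion, and the a3 subunit, whose loss causes osteopetrosis. Atp6v0d2 had 12.8, 28.1, 59.8 and 11.2 CPM in IM, against 25.1, 17.7, 84.0 and 33.0 CPM in PFNU. It had 146, 174, 241 and 130 CPM in PMMA bone, against 58.3, 43.3, 89.5 and 138 CPM in BNED. IM lay wholly below PMMA bone, while PMMA bone and BNED overlapped through rat 4.

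Tcirg1 was more even across tissues. It had 214, 61.8, 193 and 75.1 CPM in IM, against 150, 86.8, 213 and 116 CPM in PFNU, and the soft-tissue groups overlapped almost entirely. In bone it had 213, 364, 569 and 266 CPM beside the spacer, against 119, 131, 173 and 175 CPM beside the empty defect. Here PMMA bone lay above BNED in all libraries, but the IM of rat 1 reached the lowest PMMA bone library.

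Ctsk, the collagen-degrading protease cathepsin K, had 749, 1250, 2533 and 474 CPM in IM, against 850, 490, 1724 and 1080 CPM in PFNU. In bone it had 5107, 6749, 10079 and 4533 CPM beside the spacer, against 2232, 1809, 2934 and 3770 CPM beside the empty defect. PMMA bone was above both IM and BNED in every library, and PFNU was below BNED in every library.

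Acp5, the tartrate-resistant acid phosphatase used as the stain for osteoclasts, had 113, 225, 1009 and 168 CPM in IM, against 152, 142, 440 and 361 CPM in PFNU. It had 1788, 2637, 3701 and 2318 CPM in PMMA bone, against 907, 758, 996 and 1214 CPM in BNED. The same separations held as for Ctsk, and the IM of rat 3 reached the BNED range.

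By group mean, PMMA bone was highest for all 8 genes and BNED next for 7 of them. The exception was Nfatc1, with 61.0 ± 40.2 CPM in IM, 57.9 ± 3.60 in PFNU, 90.4 ± 24.8 in PMMA bone and 56.7 ± 7.91 in BNED. Neither the step between PMMA bone and BNED nor that between IM and PFNU passed the test for any of the 8 genes, and BNED was not tested against IM because the pair differs in limb and tissue.

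**Figure D1:**
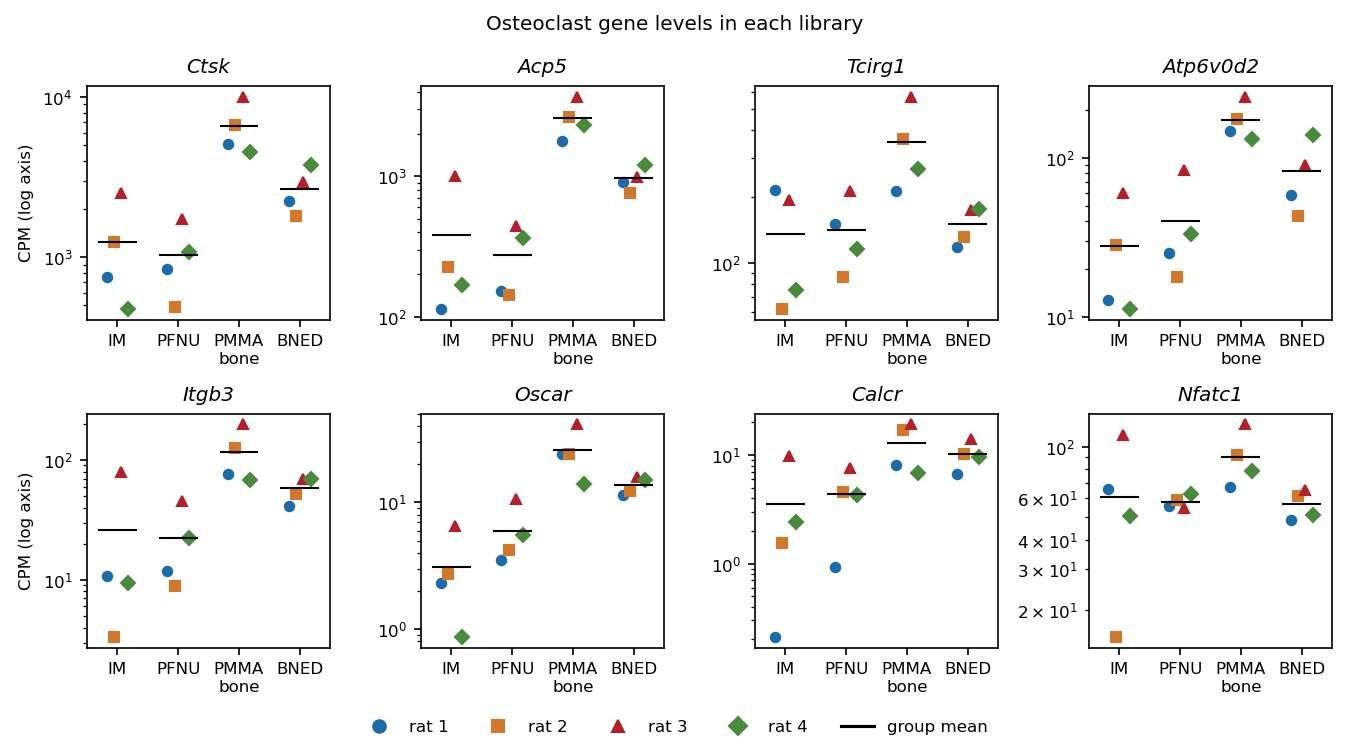
Level of each of the 8 osteoclast genes in CPM on a log axis, by group, with a point for each library shaped and coloured by rat and a black line at the group mean (n = 4 libraries). PMMA bone has the highest mean for all 8 genes, and rat 3, the red triangle, is the highest IM library for 7 of the 8.

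The first comparison asked what the spacer goes with in neighbouring bone. All 8 genes were higher in PMMA bone than in BNED on average, with a median log2 fold change of 1.04, against -0.0087 over all genes tested, of which 49.3% were higher. Ctsk averaged 6617 ± 2492 CPM in PMMA bone and 2686 ± 859 CPM in BNED (SD, n = 4 each). For Acp5 the averages were 2611 ± 807 CPM in PMMA bone and 969 ± 191 CPM in BNED, and for Tcirg1 353 ± 157 CPM in PMMA bone and 150 ± 28.8 CPM in BNED.

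None of these differences passed the edgeR quasi-likelihood test at an adjusted p under 0.05, a threshold that 631 of the 12857 genes passed in either direction, or 4.91%, and that 3.51% passed as higher. Tcirg1 came nearest, at 1.24 on the log2 scale (SE 0.41, adjusted p = 0.0915). Ctsk differed by 1.30 (SE 0.50, adjusted p = 0.133) and Acp5 by 1.43 (SE 0.58, adjusted p = 0.153). At an unadjusted p under 0.05 these 3 of the 8 passed, as did 24.3% of all genes. Atp6v0d2 at 1.07, Itgb3 at 1.02, Oscar at 0.92, Nfatc1 at 0.67 and Calcr at 0.34 had adjusted p from 0.249 to 0.818. The groups did not overlap for Acp5, Ctsk, Nfatc1 and Tcirg1, 4 of the 8, and 12.0% of all genes were higher without overlap in this way.

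How firmly the bone difference was called depended on the tool. The same 0 calls were made with the rat as a block, where Tcirg1 had an adjusted p of 0.0705 and Acp5 of 0.0895, and that fit called 3.53% of all genes. DESeq2 called Ctsk (adjusted p = 0.0462) and Tcirg1 (adjusted p = 0.0306), where it called 12.5% of all genes. The edgeR fit on the 8 bone libraries alone called Acp5, Ctsk and Tcirg1 at adjusted p of 0.0216 to 0.0326, and 14.1% of all genes. The limma-voom fit called 6 of the 8, but also 48.6% of all genes, 6244 of 12857. Without the PMMA bone of rat 1, Tcirg1 was called (adjusted p = 0.0318), as were 19.9% of all genes.

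Within rats, bone beside the spacer was set against bone beside the empty defect of the opposite limb. All 8 genes were higher in PMMA bone in each of rats 1, 2 and 3, and 4 were higher in rat 4. Acp5, Ctsk, Nfatc1 and Tcirg1 were higher in all 4 rats, as were 24.4% of all genes tested. Ctsk had log2 ratios of 1.19, 1.90, 1.78 and 0.27 in rats 1 to 4, and Acp5 of 0.98, 1.80, 1.89 and 0.93. In rat 4 the ratios of Atp6v0d2 at -0.087, Itgb3 at -0.044, Oscar at -0.12 and Calcr at -0.49 lay below 0.

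**Figure D2:**
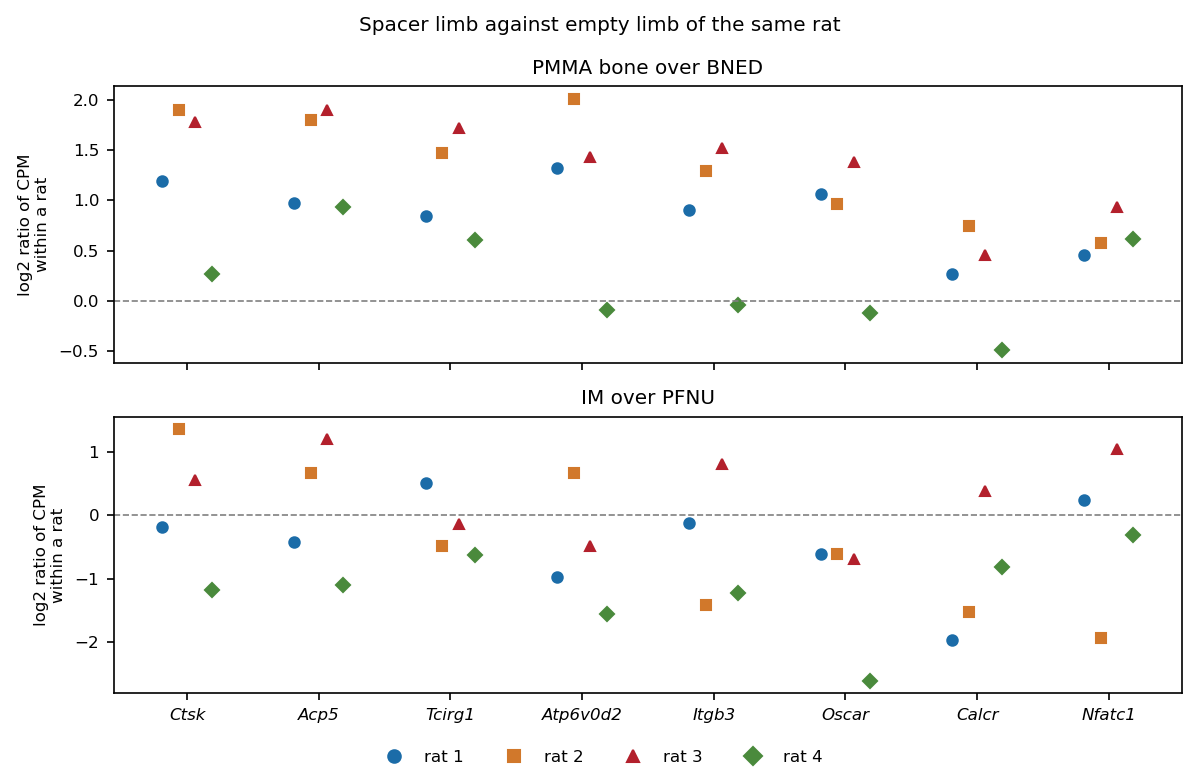
Log2 ratio of CPM between the spacer limb and the empty limb of the same rat, for PMMA bone over BNED in the upper panel and IM over PFNU in the lower panel, with a point for each of the 4 rats and a dashed line at no difference. Upper-panel points of rats 1 to 3 all lie above 0, while the lower panel is scattered on both sides of 0 for every gene but Oscar.

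Markers of other cell types were summed for the bone groups as well. All 8 osteoblast markers were positive for PMMA bone over BNED, with a median log2 fold change of 0.98 and 0 of 8 called. Erythroid markers summed to 3967 to 72427 CPM in PMMA bone, where rat 1 was the high library, and 34196 to 65485 CPM in BNED. Neutrophil markers summed to 188 to 533 CPM in PMMA bone and 1142 to 1636 CPM in BNED, and 4 of those 8 genes were called lower. The 10 macrophage markers summed to 1923 to 2746 CPM in PMMA bone and 2013 to 3102 CPM in BNED, with 0 of the 9 tested called. The scavenger receptor Marco did not pass the filter on low counts, and it was at 0 in every BNED and every IM library. Endothelial markers were positive for 6 of 6, with 1 called higher, and summed to 458 to 737 CPM in PMMA bone and 383 to 458 CPM in BNED. Skeletal muscle markers were negative for 11 of 11 with 1 called lower, T cell markers for 7 of 7 with 1 called lower, and megakaryocyte markers for the 4 of 4 tested with 1 called lower. The part of these cells in the difference of the 8 genes was not tested.

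Between the membrane and the tissue of the empty defect the 8 genes took no common direction. In IM, 4 were higher and 4 lower on average, with a median log2 fold change of 0.0085 against 0.012 over all genes. None passed the test, which 111 of 12857 genes did (0.863%), and none had an unadjusted p under 0.05 (15.5% of all genes did). DESeq2 called 0 of the 8 and 4.46% of all genes, while limma-voom called 0 of all 12857 genes, so that its 0 says nothing of the 8. Acp5 averaged 379 ± 423 CPM in IM and 274 ± 150 CPM in PFNU (SD, n = 4 each), which gave 0.47 on the log2 scale with a 95% interval of -0.75 to 1.69 (adjusted p = 0.769). For Ctsk the log2 fold change was 0.27 with an interval of -0.77 to 1.32 (adjusted p = 0.855), so a difference of over 2-fold upwards was inside the interval of each.

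Oscar was the only 1 of the 8 with the same sign in every rat, lower in the IM of 4 of 4 rats, as were 10.2% of all genes. It averaged 3.12 ± 2.43 CPM in IM and 5.96 ± 3.21 CPM in PFNU, which gave -0.93 on the log2 scale (SE 0.49, adjusted p = 0.387). The remaining log2 fold changes ran from -0.51 for Atp6v0d2 to 0.22 for Itgb3. The IM of rat 3 decided the sign of 4 genes: without it all 8 were lower in IM, with a median log2 fold change of -0.95 and 0 called, against 1.51% of all genes. Macrophage markers, in contrast, were positive in IM for 9 of the 9 tested, with a median of 1.06 and 0 called, and summed to 2249 to 7243 CPM in IM and 1615 to 3585 CPM in PFNU. Neutrophil markers were negative for 8 of 8, with 4 called lower and a median of -2.69, and summed to 2.64 to 17.6 CPM in IM and 20.7 to 102 CPM in PFNU. Erythroid markers were negative for 8 of 8 with 0 called and a median of -1.75. Of the 11 skeletal muscle markers, 7 were positive and 4 negative in IM, with a median of 0.28 and 2 called lower. Their sums overlapped, at 18654 to 259110 CPM in IM and 47366 to 151160 CPM in PFNU. The part of these cells in the values of the 8 genes was not tested.

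**Figure D3:**
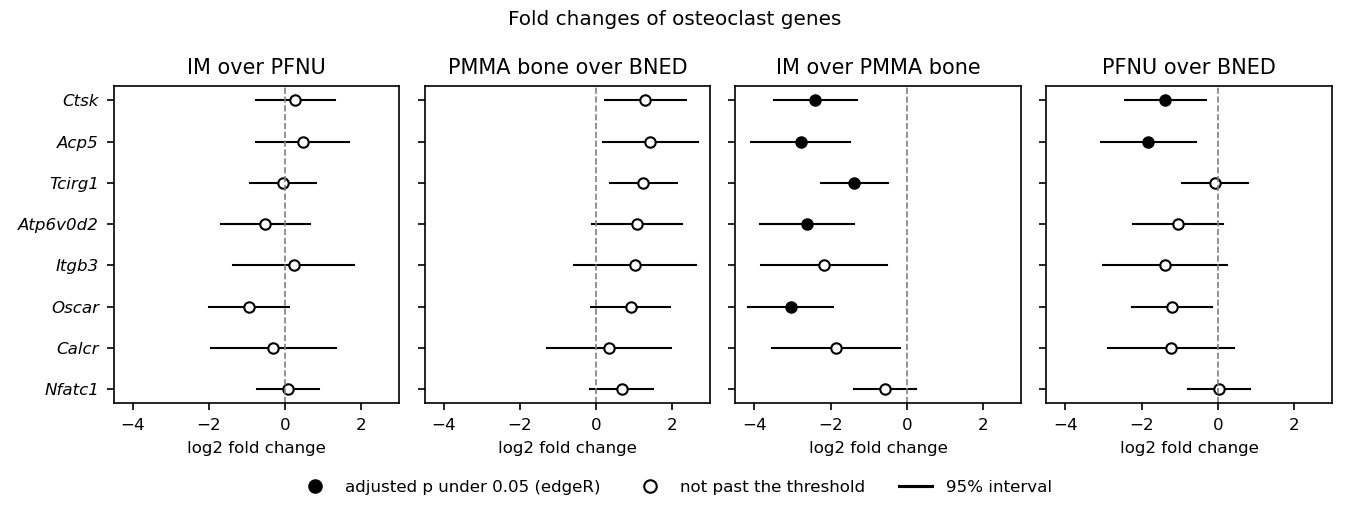
Log2 fold change of the 8 osteoclast genes in 4 comparisons, each point with its 95% interval from the edgeR fit over 16 libraries; filled points have an adjusted p under 0.05. All points of PMMA bone over BNED lie right of 0 and none is filled, while 5 are filled on the left for IM over PMMA bone and 2 for PFNU over BNED.

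In the spacer limb, all 8 genes were lower on average in the membrane than in the bone next to it, and 5 passed the test. Of all genes, 11.0% were called lower. Oscar fell the most, by 3.05 on the log2 scale (SE 0.52, adjusted p = 0.00184), averaging 3.12 ± 2.43 CPM in IM and 25.8 ± 11.4 CPM in PMMA bone. Acp5 fell by 2.78 on the log2 scale (SE 0.61, adjusted p = 0.00665), Atp6v0d2 by 2.63 (SE 0.58, adjusted p = 0.00689) and Ctsk by 2.40 (SE 0.52, adjusted p = 0.00592). These 4 were lower without overlap, as were 11.7% of all genes. Tcirg1 fell by 1.38 (SE 0.41, adjusted p = 0.0283), though its groups overlapped.

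Itgb3 at -2.18 (SE 0.78, adjusted p = 0.0562), Calcr at -1.87 (SE 0.79, adjusted p = 0.0983) and Nfatc1 at -0.57 (SE 0.39, adjusted p = 0.302) did not pass. The median of the 8 was -2.29, against 0.030 over all genes. With the rat as a block, Itgb3 (-2.87, adjusted p = 0.00588) and Calcr (-2.50, adjusted p = 0.0136) were called too, which made 7 of the 8; in that fit 11.6% of all genes were called lower. Of the 8, 7 were lower in IM in all 4 rats, as were 18.2% of all genes, and the exception was Tcirg1, with a log2 ratio of 0.0082 in rat 1. Tcirg1 was no longer called without the IM of rat 2, the IM of rat 4 or the PMMA bone of rat 3, nor when the 8 libraries of the spacer limb were fitted alone (adjusted p = 0.101).

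In the empty limb the same step, tissue of the defect against bone, passed the test for 2 of the 8 genes, both lower in PFNU. Of all genes, 15.2% were called lower. Acp5 fell by 1.82 on the log2 scale (SE 0.59, adjusted p = 0.0305), averaging 274 ± 150 CPM in PFNU and 969 ± 191 CPM in BNED. Ctsk fell by 1.37 (SE 0.50, adjusted p = 0.0486), averaging 1036 ± 519 CPM in PFNU and 2686 ± 859 CPM in BNED. Oscar did not overlap either but missed the threshold, at -1.20 (SE 0.49, adjusted p = 0.0758), and 21.0% of all genes were lower without overlap. Itgb3 at -1.39, Calcr at -1.23 and Atp6v0d2 at -1.04 had adjusted p of 0.177, 0.244 and 0.164.

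Nfatc1 at 0.032 and Tcirg1 at -0.080 were nearly level between PFNU and BNED, with 95% intervals of -0.79 to 0.85 and -0.95 to 0.79. The other 6 genes were lower in PFNU in 4 of 4 rats, as were 28.2% of all genes. The median of the 8 was -1.21, against 0.037 over all genes. With the rat as a block 5 were called, adding Oscar (-1.35, adjusted p = 0.0149), Itgb3 (-1.73, adjusted p = 0.0308) and Atp6v0d2 (-1.26, adjusted p = 0.0479), while 15.4% of all genes were called lower. The 2 calls rested on few libraries: none was left without the PFNU of rat 1 or rat 2 or the BNED of rat 1, rat 3 or rat 4, Acp5 alone was left without the PFNU of rat 4, and 4 were called without the PFNU of rat 3, where 14.2% of all genes were called lower.

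Both comparisons of soft tissue with bone also crossed a change in cell makeup. Of the 8 osteoblast markers, 4 were called lower in IM than in PMMA bone and 2 lower in PFNU than in BNED. All 8 erythroid markers were called lower in both. Of the 11 muscle markers, 8 were called higher and 1 lower in IM than in PMMA bone. In PFNU against BNED, 7 of them were called higher and 0 lower. Removing the muscle and erythroid genes from the scaling left 5 and 2 of the osteoclast genes called. The share of all genes called with that scaling is not given here, so these counts are not set against a background. TMM trims genes with extreme ratios by itself, so leaving these few out says little about cell makeup. The part of cell makeup in these differences was not tested.

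**Figure D4:**
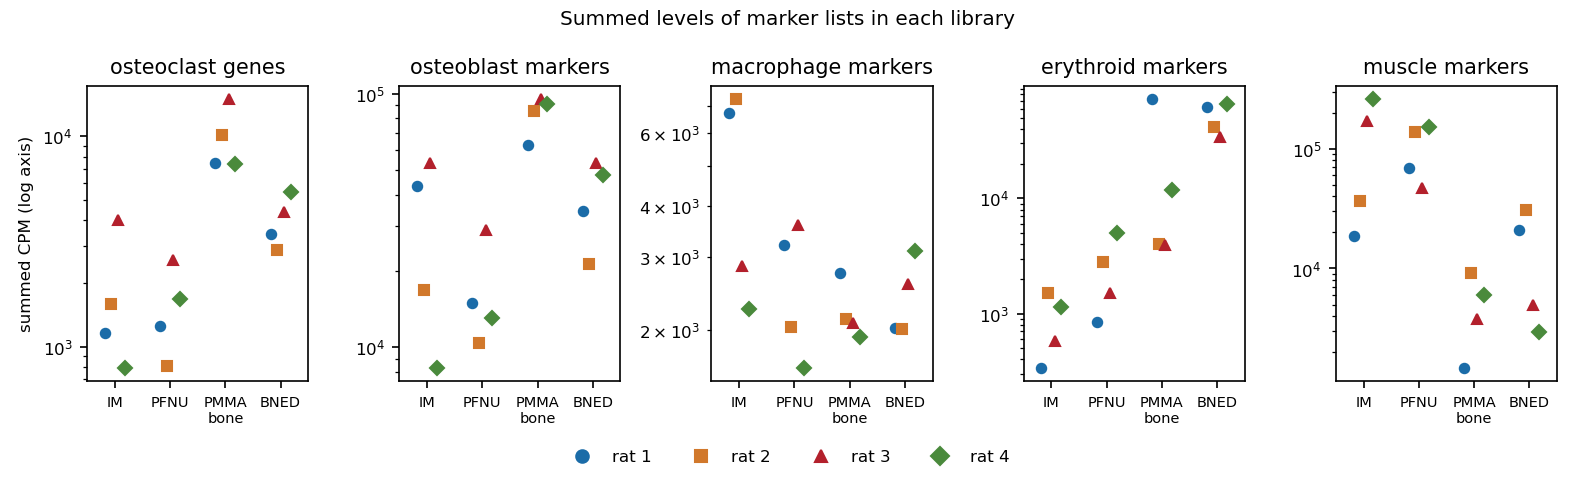
Summed CPM on log axes in each library for the 8 osteoclast genes and for marker lists of 4 other cell types, by group, with a point for each rat. Osteoclast and osteoblast sums are highest in PMMA bone, muscle sums are lower in bone than in most soft-tissue libraries, and the erythroid sum of PMMA bone rat 1 lies with BNED.

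Whether the spacer went with a different change in defect tissue than in bone was tested as an interaction, the IM over PFNU difference minus the PMMA bone over BNED difference. All 8 genes were negative, with a median of -0.99 against 0.011 over all genes, but 0 of the 8 and 0 of 12857 genes passed the edgeR test (0%). Oscar had the largest value, -1.85 (SE 0.69, adjusted p = 0.474), and Tcirg1 followed in p at -1.30 (SE 0.58, adjusted p = 0.531). These 2 had an unadjusted p under 0.05, as did 8.94% of all genes, and DESeq2 and limma-voom called 0 of the 8 as well, with 1.06% and 1.70% of all genes called. A different response of the 2 tissues was therefore not shown for any of the 8.

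Set against Ctsk in the same library, the other genes kept their proportions unevenly. The log2 ratio of Acp5 to Ctsk was -2.01 ± 0.70 in IM, -1.95 ± 0.38 in PFNU, -1.32 ± 0.24 in PMMA bone and -1.44 ± 0.19 in BNED (mean ± SD, n = 4 each). For Nfatc1 it was -4.39 ± 1.41 in IM, -4.02 ± 0.79 in PFNU, -6.16 ± 0.21 in PMMA bone and -5.52 ± 0.54 in BNED. The ratio of Nfatc1 to Ctsk was thus lower on average in bone than in soft tissue. The same held for Tcirg1, at -3.13 ± 1.12 in IM, -2.81 ± 0.37 in PFNU, -4.26 ± 0.22 in PMMA bone and -4.13 ± 0.27 in BNED. For Atp6v0d2 the ratio was -5.54 ± 0.22 in IM, -4.81 ± 0.33 in PFNU, -5.23 ± 0.13 in PMMA bone and -5.11 ± 0.27 in BNED, and its SD was below that of Nfatc1 in each group. These ratios are descriptions without a test, and transcript length, which cancels between groups, sets their level.

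Other genes of the osteoclast pathway, 48 of the 51 listed in 8 groups, were tested beside the 8. Between PMMA bone and BNED 1 was called higher and 2 were called lower, against 3.51% called higher and 1.40% called lower over all genes. By sign, 34 of the 48 were higher in PMMA bone, with a median log2 fold change of 0.51, against 49.3% and -0.0087 over all genes. The acid secretion genes were positive for 12 of 13 with 0 called. The membrane metalloprotease Mmp14 rose by 1.65 (SE 0.39, adjusted p = 0.0338), averaging 760 ± 253 CPM in PMMA bone and 243 ± 51.1 CPM in BNED. Unlike the 8 genes, Mmp14 was not lower on average in IM than in PMMA bone. It averaged 835 ± 475 CPM in IM (0.13 against PMMA bone, adjusted p = 0.827). The signalling enzymes Plcg2 (-1.01, adjusted p = 0.0189) and Btk (-1.20, adjusted p = 0.0364), which act behind immunoreceptors and are also used by B cells, were lower in PMMA bone. Mmp9, the gelatinase abundant in osteoclasts and neutrophils, averaged 1884 ± 920 CPM in PMMA bone and 603 ± 218 CPM in BNED without passing (adjusted p = 0.135). Between IM and PFNU 0 of the 48 were called by edgeR.

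In the spacer limb 17 of the 48 were called lower in IM than in PMMA bone and 4 were called higher, against 11.0% called lower and 11.3% called higher over all genes. The acid secretion group fell most widely, with 9 of 13 called lower and 4 not passing. Car2, the carbonic anhydrase that supplies protons and is also a red cell enzyme, fell by 4.67 (SE 0.71, adjusted p = 8.93e-04), averaging 26.2 ± 18.2 CPM in IM and 669 ± 703 CPM in PMMA bone. Pump subunits Atp6v1b2 (-1.47, adjusted p = 0.00343) and Atp6v1h (-1.06, adjusted p = 0.00405) and the sorting nexin Snx10 (-1.55, adjusted p = 0.00413) fell as well. Mmp9 fell by 3.32 (SE 0.68, adjusted p = 0.00454).

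Of the 11 receptors and adaptors, 4 were called lower and 1 was called higher in IM. The signalling genes Plcg2 (-0.88, adjusted p = 0.00594) and Syk (-1.21, adjusted p = 0.0134) were among the lower ones. The RANKL receptor Tnfrsf11a fell by 1.32 (SE 0.39, adjusted p = 0.0274) and Siglec15, a receptor needed for multinucleation, by 2.09 (SE 0.57, adjusted p = 0.0183). Trem2, found on macrophages as well, rose by 1.65 (SE 0.46, adjusted p = 0.0211), while the summed macrophage markers were 2249 to 7243 CPM in IM and 1923 to 2746 CPM in PMMA bone, with 4 of 9 called higher. The transcription factors split, with Prdm1 lower (-1.53, adjusted p = 0.00491) and Mitf higher (0.73, adjusted p = 0.0218) in IM. Of the attachment genes Rac2 (-1.55, adjusted p = 0.00208) and Src (-1.07, adjusted p = 0.0385) were lower and Gsn (1.90, adjusted p = 0.0114) was higher.

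In the empty limb 8 of the 48 were called lower in PFNU than in BNED and 5 were called higher. Over all genes 15.2% were called lower and 15.0% higher, so neither count stood far from the background. Only Car2 of the acid secretion group was called, with a fall of 3.79 (SE 0.68, adjusted p = 0.00114), averaging 78.7 ± 36.3 CPM in PFNU and 1085 ± 243 CPM in BNED. Of the 4 other fusion genes measured, Cd47 was lower (-1.02, adjusted p = 0.0106) and no other comparison called any. Plcg2 (-1.71, adjusted p = 9.55e-05), Rac2 (-1.91, adjusted p = 3.09e-04), Syk (-1.99, adjusted p = 4.88e-04) and Btk (-1.90, adjusted p = 5.54e-04), all at work in other blood cells too, had the smallest adjusted p of all. Neutrophil markers went with them, at 20.7 to 102 CPM summed in PFNU and 1142 to 1636 CPM in BNED. Trem2 (1.27, adjusted p = 0.0474), Mitf (0.72, adjusted p = 0.0173), the actin-severing gelsolin gene Gsn (1.76, adjusted p = 0.0110) and the repressor Bcl6 (0.81, adjusted p = 0.0264) were higher in PFNU.

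Of the 4 genes upstream, which encode ligands and the decoy receptor of RANKL, Il34, whose product shares the CSF1 receptor, was called. It was higher in IM than in PMMA bone (1.30, SE 0.29, adjusted p = 0.00766) and in PFNU than in BNED (1.85, SE 0.30, adjusted p = 5.60e-04). The others were called in none of the comparisons. Tnfsf11, which encodes RANKL, averaged 3.82 ± 3.64 CPM in IM, 1.79 ± 0.53 in PFNU, 9.64 ± 2.45 in PMMA bone and 4.20 ± 1.34 in BNED, with a log2 fold change of 1.20 for PMMA bone over BNED (adjusted p = 0.165). Its decoy receptor gene Tnfrsf11b averaged 48.4 ± 24.3 CPM in IM, 17.1 ± 7.69 in PFNU, 20.2 ± 3.62 in PMMA bone and 12.9 ± 8.63 in BNED, with 1.50 for IM over PFNU (adjusted p = 0.132). Csf1 averaged 148 ± 55.0 CPM in IM, 142 ± 40.5 in PFNU, 233 ± 51.4 in PMMA bone and 149 ± 40.5 in BNED. The CSF1 receptor gene Csf1r averaged 501 ± 139 CPM in IM, 301 ± 120 in PFNU, 606 ± 125 in PMMA bone and 413 ± 80.0 in BNED.

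The genes whose pattern over the 16 libraries was most like that of the 8 were ranked by the root mean square difference between centred log2 CPM profiles. Among 11492 other genes the nearest were Sdc3 at 0.276, Arsb at 0.294, Lrp4 at 0.355, Fam20a at 0.370, Cdk18 at 0.390, Fgfr2 at 0.405, Siglec15 at 0.407 and Pth1r at 0.409. The median gene stood at 1.24 and the tenth percentile at 0.989. Sdc3, a cell-surface proteoglycan, averaged 113 ± 113 CPM in IM, 130 ± 70.2 in PFNU, 554 ± 129 in PMMA bone and 270 ± 64.4 in BNED. Pth1r, the parathyroid hormone receptor of osteoblasts, and Siglec15, of osteoclasts, were both on the list, so likeness in bulk tissue did not separate cell types. Measured in the same way against the mean of the other 7, the 8 genes themselves ran from 0.446 for Atp6v0d2, 0.453 for Ctsk, 0.549 for Oscar, 0.614 for Acp5 and 0.624 for Itgb3 to 0.817 for Tcirg1, 1.01 for Calcr and 1.04 for Nfatc1.

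**Figure D5:**
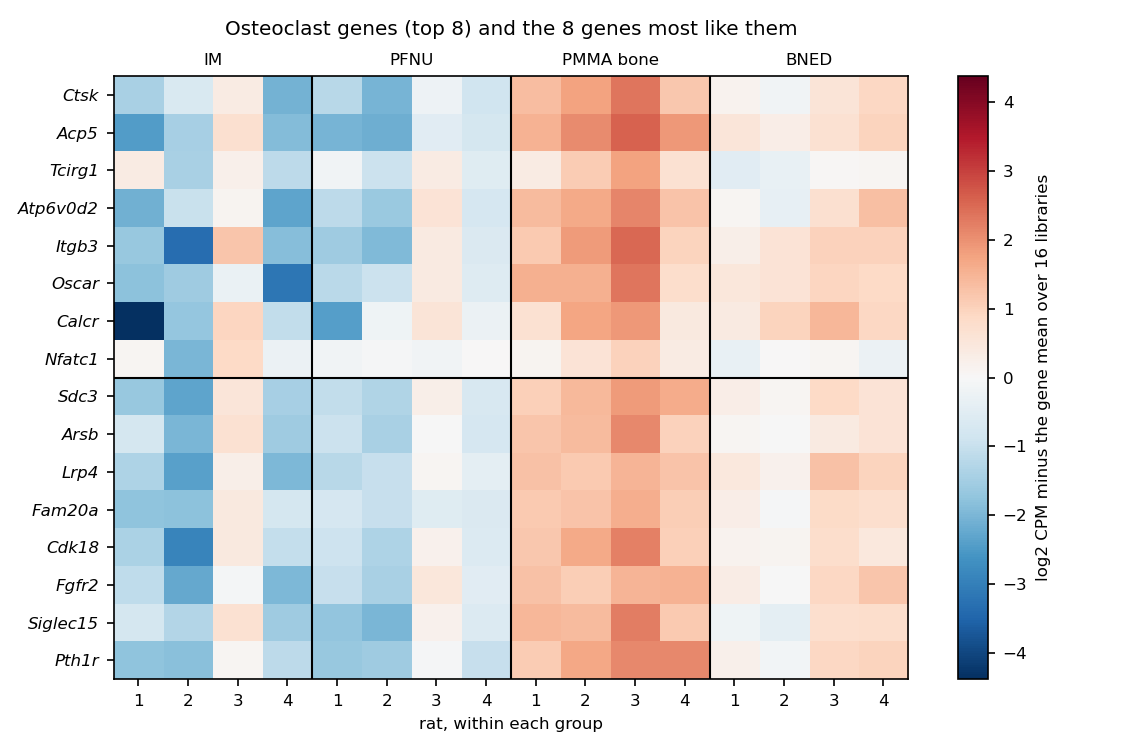
Log2 CPM of each gene minus its mean over 16 libraries, in colour, for the 8 osteoclast genes above the line and the 8 most similar genes below it, with libraries in columns by group and rat. Bone beside the spacer is red in nearly every row, the soft tissues are mostly blue apart from rat 3, and Nfatc1 is the palest of the 8 osteoclast genes.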

How the data were processed

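RNA was extracted with Trizol, treated with DNase and made into stranded poly-A TruSeq libraries read from both ends, per the labels' protocols. Build rn5 and the tools Bowtie2 2.2.1, TopHat2 2.0.13, DESeq2 and FastQC 0.11.3 stand in the submitters' processing notes. How reads were counted, on which annotation and with which strand setting is not given in the sources used here, so antisense and overlapping genes could not be told apart. The deposited values are whole-number counts per gene symbol, not normalised, with totals of 40472228 to 76815879 per library. Counts come from PCR reads without molecular identifiers, so depth covers counting error only.

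Groups and rats were read from the label of each library. Counts were tested with edgeR 4.0.16 (R 4.3.3) by the quasi-likelihood F-test, with TMM scaling, the default low-count filter (filterByExpr, by group) and 4 group means over all 16 libraries. P-values were adjusted by Benjamini-Hochberg over 12857 genes, with 0.05 as the threshold for a call. An adjusted p in the text is from this fit unless another tool or setting is named. Standard errors of log2 fold changes were derived from the F statistic. Centred profiles and within-rat ratios of log2 CPM used a prior count of 2, and ratios printed per rat are on that scale. The procedure was tested on simulated data. Alternatives were RLE scaling, no filter, DESeq2 1.42.0, limma-voom (limma 3.58.1) with quality weights, a rat block, scaling without muscle and erythroid genes, the groups compared alone, and each library left out.

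The labels give the same 4 rats in every group, so the samples are paired by animal. Deviations from the group means correlated between libraries of 1 rat with r from -0.345 to 0.496 (median 0.0683, 24 pairs), against a median of 0.00198 over 72 pairs from different rats. No pair of replicates agreed within sampling noise (lowest chi-square per degree of freedom 80.9).

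The 10 genes and all lists were chosen with earlier results of these data known. All measured members are described. Of each other list, up to 4 called genes with the smallest adjusted p are named for a comparison. Tnfsf11, Tnfrsf11b, Csf1 and Csf1r are named in any case. Tnfrsf11a and Mmp14 between IM and PMMA bone, Mmp9 between the bone groups and Marco were picked after their values were seen. The 8 most similar genes are the non-members of at least 1 CPM on average with the smallest root mean square difference. Promoters are RefSeq sequences on GRCr8, not the build of the counts, and no coordinates of the counted genes are given.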

Additional observations from a re-analysis of the deposited data

Results flagged for a closer look

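Of the 32 sets of 4 libraries formed by the 8 genes and 4 groups, 2 held a library far from the other 3. Both were the membrane of rat 3. Chance alone flags about 1 in 20 independent sets of normal values. The 32 sets share libraries and are not independent, so that rate cannot say whether 2 of 32 arose by chance. The rule was applied to CPM, and on log2 CPM both gaps were smaller parts of the range. There Acp5 had 6.82, 7.81, 9.98 and 7.40 in the IM of rats 1 to 4. Itgb3 had 3.44, 1.76, 6.32 and 3.25. Acp5 was at 1009 CPM there, and the next membrane library was at 225 CPM, a gap of 0.875 of the group's whole range. Itgb3 was at 79.9 CPM there, and the next was at 10.8 CPM, a gap of 0.903 of the range. The same library held osteoblast markers at 53197 CPM in sum, the highest of the 4 membranes, and muscle markers at 169460 CPM. Col1a1, at 27071 CPM on average in IM, was the largest part of the osteoblast sum of the membranes. Macrophage markers of the rat 3 membrane, at 2856 CPM, were below those of rats 1 and 2. The part of these cells in the 2 values was not tested.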

How the results depend on the processing

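Across 7 alternatives and the leave-one-out fits, the 8 genes kept a positive difference for PMMA bone over BNED and a negative one for IM over PMMA bone. The interaction also stayed negative in these fits, except that the groups compared alone could not give it. Their called count for PMMA bone over BNED was 0 in the main analysis, 6 with limma-voom, 2 with DESeq2, 3 with the groups compared alone and 0 to 1 with a library left out. For PFNU over BNED it was 2, against 1 without the filter, 5 with the replicate block for rat and 4 with the groups alone. It was 5 with limma-voom, where 6720 of all genes were called. With a library left out it was 0 to 4, where 2637 to 3981 of all genes were called. No share of all genes is given for the fits without the filter or with the groups alone, so those counts are not set against a background. The called count was 4 to 7 for IM over PMMA bone, and 0 for IM over PFNU and the interaction. The block changed no call beyond those given beside the results. Signs turned for IM over PFNU: Nfatc1 -0.070 and Itgb3 -0.23 with the block, and Calcr 0.10, Atp6v0d2 0.10 and Tcirg1 0.27 with limma-voom. For PFNU over BNED, Nfatc1 was -0.015 with the groups alone. With a library left out, IM over PFNU ranged from -0.70 to 0.79 for Acp5, -0.33 to 0.63 for Ctsk, -1.63 to 0.11 for Calcr, -1.20 to 0.15 for Atp6v0d2, -0.40 to 0.40 for Nfatc1, -1.49 to 0.86 for Itgb3 and -0.38 to 0.21 for Tcirg1. PFNU over BNED ranged from -0.034 to 0.10 for Nfatc1 and -0.35 to 0.095 for Tcirg1. The cause of these shifts was not tested. Genes called in all for IM over PFNU numbered 111, against 572 with DESeq2, 0 with limma-voom or the groups alone, 47 with the block and 11 to 244 with a library left out. For PMMA bone over BNED they numbered 631, against 1546 with DESeq2, 6244 with limma-voom, 1767 alone and 0 to 2578. For IM over PMMA bone they numbered 2860, against 908 alone and 1818 to 4047 with a library left out, and for PFNU over BNED 3884, against 6720 with limma-voom. For the interaction they numbered 0, against 136 with DESeq2, 218 with limma-voom and 0 to 199 with a library left out. Of the 8 most similar genes, 7 stayed with a prior count of 0.5. Calcr, at 11 counts in 1 library, is the gene most limited by depth.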

Other observations

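The highest library of a group was often that of the same animal, a pattern noticed after the values were seen. Rat 3 held the highest value of 7 of the 8 genes in IM, 7 in PFNU, 8 in PMMA bone and 3 in BNED. Over all genes tested, rat 3 was highest for 16.9% in IM, 28.6% in PFNU, 23.0% in PMMA bone and 21.9% in BNED. In all, 6 of the 8 genes, Acp5, Ctsk, Calcr, Oscar, Atp6v0d2 and Itgb3, were highest in rat 3 in IM, PFNU and PMMA bone together, as were 2.43% of all genes.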
